A study of Mus musculus with 10 samples.

Results

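Forkhead transcription factors were followed by RNA sequencing through the reprogramming of mouse embryonic fibroblasts. The genes were chosen by name alone: a symbol made of Fox, a subfamily letter from A to S and a number, together with at least 1 protein-coding transcript. This gave 44 of 45706 genes, and 21923 of those 45706 have a protein-coding transcript. The rule uses no measured value.

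Forkhead proteins share a winged-helix domain that binds DNA, and the subfamilies are told apart by the sequence around it. FoxA proteins can bind sites in closed chromatin and act in endoderm, FoxO proteins are kept out of the nucleus when Akt phosphorylates them, Foxm1 drives genes of mitosis, and Foxj1 drives the genes of motile cilia. Foxd3 and Foxh1 act in the epiblast, the tissue that embryonic stem cells represent, whereas FoxC, FoxD and FoxF genes pattern mesenchyme.

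The study compared 5 groups of 2 libraries each, described as biological replicates. The fibroblasts (MEF) carried the OKSM cassette for Oct4, Klf4, Sox2 and Myc in the Col1a1 locus and the M2rtTA transactivator in the Rosa26 locus, on a C57BL/6 x 129 background, and the MEF group was grown in fibroblast medium without doxycycline. Cells of the same genotype were induced with doxycycline and ascorbic acid in ESC medium and taken as whole cultures at day 3, or sorted for the surface marker SSEA1 at day 6 and day 9. The reference was the embryonic stem cell (ESC) line V6.5, grown without a sort on irradiated feeder cells in medium with serum and LIF, with no doxycycline or ascorbic acid in its label. The sort lies between day 3 and day 6, so time and selection cannot be told apart in that step, and medium, ascorbic acid and doxycycline all change between MEF and day 3. The labels do not say whether feeder cells were removed, nor how many animals the fibroblasts came from, so p-values measure only the spread between these libraries.

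Libraries held 29585876 to 38275024 estimated reads, of which 20662 to 38135 fell on forkhead genes. Markers followed the labels: 15 fibroblast markers summed to 63800 and 61380 CPM (reads scaled to library size with TMM) in MEF, and 12 pluripotency markers to 4486 and 4570 CPM in ESC against 2.22 and 2.53 CPM in MEF. The fibroblast sum was 910.4 and 868.6 CPM at day 6, 656.8 and 628.1 CPM at day 9, and 8471 and 8616 CPM in ESC. Sex-linked genes split the libraries: Xist, the RNA that coats an inactive X chromosome, was at 0.739 and 0.793 CPM in MEF and at 929.6 to 1317 CPM in the 6 induced libraries. Y-linked Ddx3y was at 90.6 and 86.4 CPM in MEF, at no more than 0.176 CPM in the induced libraries and at 26.1 and 26.8 CPM in ESC. The source of the fibroblasts and the induction therefore cannot be told apart in comparisons of induced cells with MEF. Xist was at 11.3 and 9.0 CPM in ESC, so these sex-linked genes also differ between induced cells and ESC. The part of that difference in comparisons with ESC was not tested.

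Of the 44 genes, 34 passed the low-count filter. The other 10 (Foxa2, Foxb1, Foxb2, Foxd4, Foxe1, Foxe3, Foxi1, Foxi2, Foxl2 and Foxp3) stayed at or below 0.32 CPM in every library. Foxi1, a gene of the inner ear and kidney, had 0 reads in all 10 libraries, which allows a level of up to 0.042 to 0.0501 CPM per group (3 reads over both libraries, counting error only). Foxe1 of the thyroid, Foxe3 of the lens, Foxl2 of the ovary and Foxp3 of regulatory T cells had between 2 and 42 reads over all libraries. In bulk RNA a lower level can come from fewer cells with the transcript or from less RNA per cell, and these cannot be told apart for any gene described here.

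Compared per length, on the scale of deposited TPM, a small set of broadly expressed members made up most of the forkhead RNA. Of the 44 genes, 12 had a mean of at least 1 TPM in every group: Foxj2, Foxj3, Foxk1, Foxk2, Foxm1, Foxn2, Foxn3, Foxo1, Foxo3, Foxo4, Foxp1 and Foxp4. The 6 highest members of each group held between 64.8% and 72.0% of the summed forkhead level. That sum was 152.3 TPM in MEF, 163.6 TPM at day 3, 191.4 TPM at day 6, 164.2 TPM at day 9 and 134.8 TPM in ESC. Foxp1 ranked first in 4 of the 5 groups, with 26.8 and 31.5 TPM in MEF, 35.6 and 33.3 TPM at day 3, 37.8 and 33.6 TPM at day 6, and 23.0 and 19.4 TPM in ESC. In MEF its libraries overlapped with those of Foxk2 (29.5 and 26.5 TPM), the next in order. At day 9 Foxp4 (22.1 and 22.4 TPM) came first, and the Foxm1 libraries (20.8 and 22.2 TPM) overlapped with those of Foxp4 and Foxp1 (21.9 and 21.4 TPM). Foxh1 entered the 6 highest members in ESC alone, at 11.2 and 11.0 TPM. This order depends on the scale. On counts, which are not divided by length, Foxk2 (115.7 and 117.0 CPM) lay above Foxp1 (92.3 and 88.4 CPM) in MEF. Foxn3, among the 6 highest in MEF, had 23.0 TPM there at 18.9 CPM, whereas Foxo3 had 5.7 TPM at 79.8 CPM. TPM rests on how reads were divided among transcripts of different length, which was not tested.

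**Figure D1:**
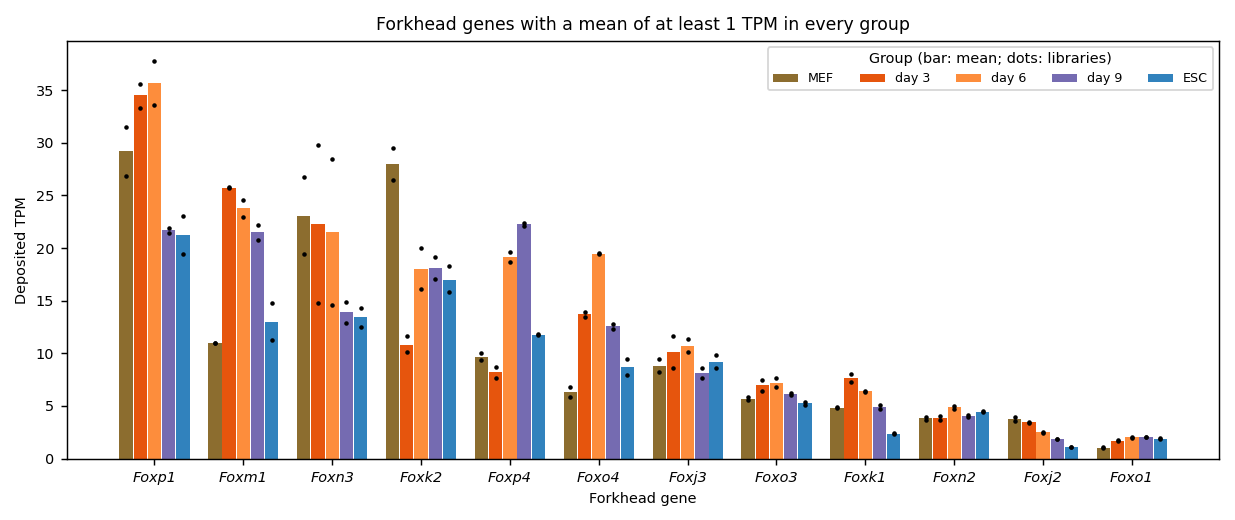
Deposited TPM (y axis) of the 12 forkhead genes with a mean of at least 1 TPM in each of the 5 groups; bars are group means and dots are the 2 libraries. Foxk2 is lowest at day 3 (10.1 and 11.6 TPM), Foxp4 is highest at day 9 (22.1 and 22.4 TPM), and the Foxn3 libraries of day 3 lie far apart (14.8 and 29.8 TPM).

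Differences were tested on counts with edgeR's quasi-likelihood test and Benjamini-Hochberg adjustment, and a gene was called where the adjusted p-value over all 20165 genes tested was under 0.05 and the change at least 2-fold. From MEF to day 3, 5 of the 34 forkhead genes tested rose and 8 fell (38.2%, against 29.1% of all genes tested, 14.6% higher and 14.5% lower). Among the risers were Foxd1, Foxj1, Foxm1 and Foxo4, and among those that fell were Foxc2, Foxl1, Foxp2 and Foxs1. From day 3 to day 6, 5 rose and 8 fell (38.2%, against 19.5% of all genes, 9.26% higher and 10.2% lower). From day 6 to day 9, 3 rose and 1 fell (11.8%, against 7.87%, 5.18% higher and 2.68% lower). Between day 9 and ESC, 16 genes were higher in ESC and 5 lower (61.8%, against 32.9%, 18.6% higher and 14.3% lower). Between MEF and ESC, 11 were higher and 10 lower (61.8%, against 46.1%, 25.5% higher and 20.6% lower).

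Over the 5 comparisons 27 of the 34 genes were called at least once, against 62.0% of all genes, and 12 of the 27 reached a mean of 5 CPM in no group. Some genes passed the filter only through the group in which they were high, so these shares describe the family and test nothing. The 7 genes called in none of the 5 comparisons were Foxj3, Foxk2, Foxn1, Foxn2, Foxo1, Foxo3 and Foxp1. The median log2 fold change of the 34 genes was 0.0 from MEF to day 3 (0.08 over all genes), -0.03 from day 3 to day 6 (-0.01 with genes at 0 reads in a group set to the floor of 3 reads, 0.03 over all genes), -0.01 from day 6 to day 9 (0.0), 0.46 from day 9 to ESC (0.0) and 0.17 from MEF to ESC (0.1). Scaling by library size alone moved the median of all genes to 0.29 from MEF to day 3 and to 0.44 from MEF to ESC, and the forkhead counts became 6 higher and 5 lower at day 3 and 14 higher and 7 lower in ESC. Without the first day 9 library or the second day 6 library, no forkhead gene fell from day 6 to day 9, and without the second MEF library 5 rather than 8 fell at day 3.

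**Figure D2:**
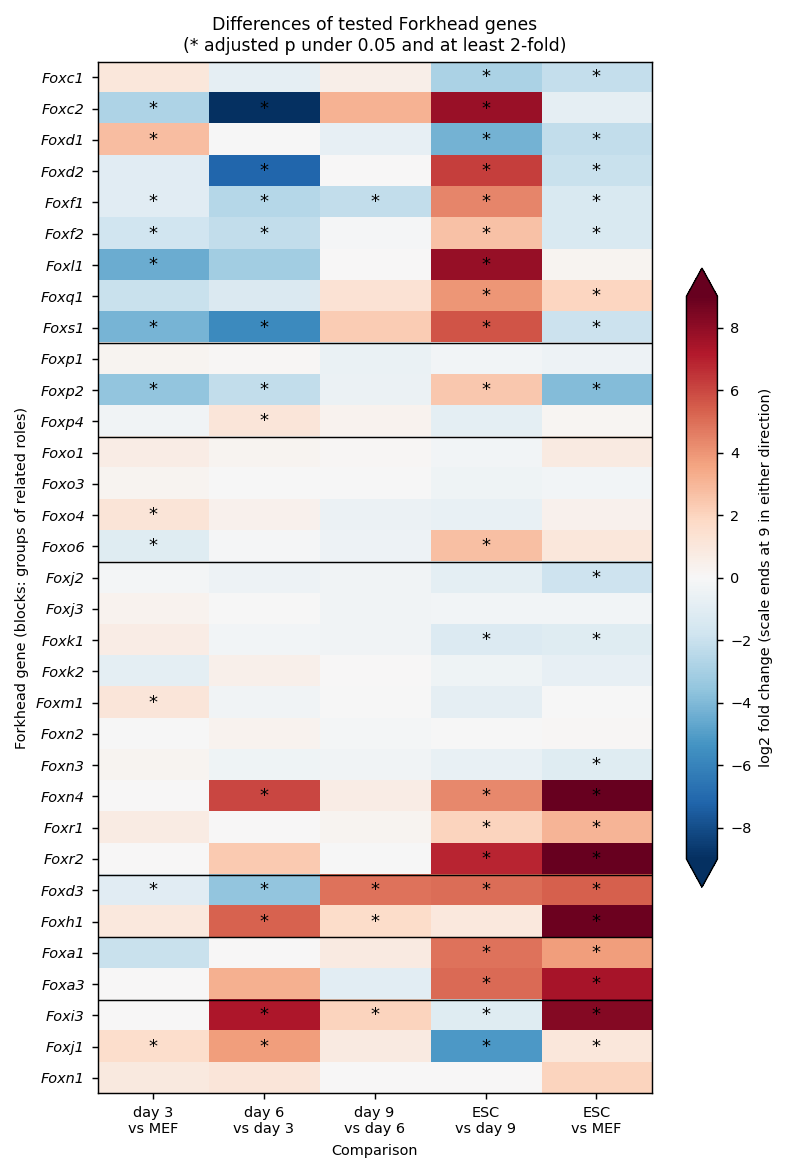
Log2 fold change (colour, red for higher in the first group named) of forkhead genes tested (rows, grouped by role) in 5 comparisons (columns), with a star for an adjusted p-value under 0.05 and at least a 2-fold change. The top block is the group named mesenchymal, which includes the epithelial gene Foxq1. There 5 of 9 genes carry a star for a fall in each of the first 2 columns and 7 for a rise in the fourth. The darkest cells include genes with no reads in 1 group, where the size of the change is not fixed by the data.

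Some forkhead genes left the range between MEF and ESC. Of the 34 tested, 5 (Foxd1, Foxi3, Foxj1, Foxm1 and Foxo4) were called above both MEF and ESC on at least 1 induced day, against 11.8% of all genes tested. Another 10 (Foxc2, Foxd2, Foxd3, Foxf1, Foxf2, Foxl1, Foxo6, Foxp2, Foxq1 and Foxs1) were called below both, against 12.4% of all genes. The first share is near that of all genes and the second is above it. Some of the 10 passed the filter only through MEF and ESC, such as Foxl1, with at most 2 reads in any induced library. The second share therefore tests nothing. With the stricter filter, which drops low genes, both counts were 3. With DESeq2 the first count was 3. The place of Foxq1 below MEF rests on 11 reads in MEF against 1 at day 6 and 3 at day 9. DESeq2 did not call Foxq1 below MEF at day 6 (adjusted p = 0.055) or day 9 (adjusted p = 0.13).

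Foxj1, the master regulator of motile cilia, rose far above both MEF and ESC in the sorted cells. Its level was 0.887 and 0.915 CPM in MEF, 2.48 and 3.04 CPM at day 3, 38.2 and 37.9 CPM at day 6, 68.5 and 67.9 CPM at day 9, and 1.62 and 2.06 CPM in ESC. All 4 sorted libraries lay far above the other 6, and no 2 groups overlapped. Foxj1 rose 3.04-fold from MEF to day 3 (log2 fold change 1.60, SE 0.18, adjusted p = 2.1e-06) and 13.8-fold from day 3 to day 6 (3.79, SE 0.09, adjusted p = 1.2e-13). Day 9 exceeded MEF 75.3-fold (6.23, SE 0.10, adjusted p = 7.1e-16) and ESC 36.8-fold (5.20, SE 0.09, adjusted p = 2.3e-15). The step from day 6 to day 9 was 1.79-fold (0.84, SE 0.06, adjusted p = 4.8e-08) and so below the fold minimum. ESC also exceeded MEF, by 2.04-fold (1.03, SE 0.20), a call lost with DESeq2 (0.96) and without the second ESC library (0.83).

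The summed level of motile cilium genes was 113.9 and 119.8 CPM in the MEF libraries and 122.9 and 125.4 CPM at day 9, and this sum was not tested. Cfap43 (62.0 CPM) and Tppp3 (36.4 CPM) made up most of the sum in MEF. Of 20 genes of cilium assembly and multiciliated cells, 12 passed the filter, and from day 3 to day 6, 6 of these rose and 1 fell, with a median log2 fold change of 0.90 (0.73 with genes at 0 set to the floor of 3 reads, against 0.03 over all genes). None of the 6 reached 20 CPM at day 6. Of the 18 list genes found in the annotation, 9 were under 1 CPM at day 6 and 9 at day 9, compared with 12 in MEF. Rfx2, a partner factor of Foxj1 in ciliogenesis, was at 2.72 CPM in MEF, 20.8 CPM at day 9 and 53.4 CPM in ESC, where Foxj1 itself was low. Myb, another gene of the list, was at 21.1 CPM at day 9 and 3.42 CPM in ESC (-2.61, SE 0.20). Of the 12 tested, 4 were higher and 3 lower in ESC than at day 9. Cfap43 and Tppp3 were at 16.8 and 12.2 CPM in ESC, where 7 of the 12 were higher than in MEF and 3 lower.

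Foxd1, a gene of stromal progenitors in the kidney and of the optic cup, was high on all 3 induced days. It was at 5.76 and 5.49 CPM in MEF, 39.0 and 36.3 CPM at day 3, 37.0 and 37.6 CPM at day 6, 21.7 and 22.9 CPM at day 9, and 1.27 and 1.09 CPM in ESC. The day 3 and day 6 libraries overlapped, and every induced library lay above every MEF and ESC library. The rise from MEF to day 3 was 6.71-fold (log2 fold change 2.75, SE 0.07, adjusted p = 2.8e-13), and ESC were 18.9-fold below day 9 (-4.24, SE 0.10, adjusted p = 7.8e-14) and 4.76-fold below MEF (-2.25, SE 0.13, adjusted p = 9.6e-10). Among the mesenchymal forkhead genes tested, Foxd1 was the only one called higher at day 3.

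Foxi3, a gene of ectodermal placodes and their appendages, appeared only after day 3 and at low level. It had 0 reads in the MEF and day 3 libraries, 0.470 and 0.665 CPM at day 6, 2.44 and 2.22 CPM at day 9, and 1.24 and 0.961 CPM in ESC. Day 9 was at least 46.6-fold higher than MEF and 4.09-fold higher than day 6 (log2 fold change 2.03, SE 0.35, adjusted p = 0.00074). Day 9 also exceeded ESC 2.12-fold (1.08, SE 0.33, adjusted p = 0.011), but that call was lost with DESeq2 (adjusted p = 0.11) and without the first day 9 library (0.058) or the second ESC library (0.091). Epithelial markers moved over the same days: 12 markers of keratinocytes and simple epithelium summed to 44.5 and 48.5 CPM in MEF, 25.8 and 23.8 CPM at day 3, 262.5 and 269.2 CPM at day 6, 1413 and 1471 CPM at day 9, and 604.4 and 606.1 CPM in ESC. Of the 12, 11 rose from day 6 to day 9 and 9 were lower in ESC than at day 9, and at day 9 2 were under 1 CPM. Their part in the Foxi3 and Foxj1 levels was not tested.

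The stretches upstream of Foxd1 and Foxi3 are printed because both genes left the range of MEF and ESC in the induced cells, and the cassette includes the KLF-family factor Klf4. They are 2 of the 5 genes called above both ends, and those of Foxj1, Foxm1 and Foxo4 are not shown. The place of Foxi3 above ESC was lost under some alternatives, as given above. Each is the part of the 250 bases before the RefSeq start that also lies before the annotated gene start (GRCm38.p6, from RefSeq, plus strand for both genes). Capitals mark matches to the KLF-type letters GGGNGTGG on either strand (CCACNCCC on the other). Foxd1 spans chr13:98353995-98354241 and Foxi3 spans chr6:70956356-70956530.
Foxd1: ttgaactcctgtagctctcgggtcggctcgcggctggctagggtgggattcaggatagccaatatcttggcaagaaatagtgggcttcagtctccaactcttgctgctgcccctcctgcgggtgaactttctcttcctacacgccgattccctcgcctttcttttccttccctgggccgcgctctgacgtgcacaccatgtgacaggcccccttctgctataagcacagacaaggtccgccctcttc
Foxi3: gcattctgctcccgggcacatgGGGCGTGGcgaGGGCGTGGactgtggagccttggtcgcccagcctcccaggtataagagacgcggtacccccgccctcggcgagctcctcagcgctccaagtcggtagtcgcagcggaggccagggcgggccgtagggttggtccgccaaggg
Foxi3 holds 2 matches 3 bases apart near its upstream end, and Foxd1 holds none in this window. The same letters occur in 15.9% of 32851 promoter windows of 250 bases and in 8 of the 33 windows of forkhead genes (24.2%, from 7 genes: Foxa2, Foxa3, Foxd3, Foxi3, Foxj3, Foxl2 and Foxr2). The 33 windows cover 28 of the 44 genes. Their median GC content was 62.0% and their median number of CG dinucleotides 16, against 52.4% and 6 over all windows. The octamer ATTTGCAT was in 1.6% of all windows and in 0 forkhead windows. The forkhead core GTAAACA was in 3.17% of all windows and in 1 forkhead window, that of Foxa1. A match is a description of letters and no evidence of binding.

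Foxm1, the activator of G2 and M phase genes, was highest at day 3. It was at 69.7 and 69.5 CPM in MEF, 147.3 and 146.2 CPM at day 3, 120.8 and 117.3 CPM at day 6, 112.2 and 120.8 CPM at day 9, and 69.8 and 64.6 CPM in ESC. All induced libraries lay above all MEF and ESC libraries, and MEF and ESC overlapped. The rise to day 3 was 2.11-fold (log2 fold change 1.08, SE 0.05, adjusted p = 3.9e-11), close to the fold minimum: the stricter filter gave 0.99 and DESeq2 0.95. ESC differed from MEF by -0.05 (SE 0.05, adjusted p = 0.33) and from day 9 by -0.80 (SE 0.05, adjusted p = 1.2e-09), a 1.74-fold difference.

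Some of the genes that Foxm1 is known to activate rose at day 3, and more of them were higher in ESC than in MEF. Of 20 such genes, 6 rose and 0 fell from MEF to day 3, with a median log2 fold change of 0.86 against 0.08 over all genes. Aurkb, a mitotic kinase, went from 31.0 to 95.4 CPM (log2 fold change 1.62, SE 0.04), and Cdc25b, a phosphatase that activates Cdk1, from 36.0 to 107.2 CPM. Cenpa, the centromeric histone, went from 63.8 to 162.6 CPM. In ESC 14 of the 20 were higher than in MEF and 0 lower, with a median of 1.27 against 0.1 over all genes, while Foxm1 differed by -0.05. Ccnb1 (cyclin B1) was at 101.2 CPM in MEF and 420.4 CPM in ESC (2.06, SE 0.03), and Bub1b at 69.9 and 249.9 CPM. From day 9 to ESC 0 of the 20 rose and 1 fell, Cdc25b, from 78.5 to 38.9 CPM.

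Among the partners that bring Foxm1 to its targets, Mybl2 rose in 3 of the 4 steps. Mybl2 (B-Myb), which recruits Foxm1 to the MuvB complex, went from 19.7 CPM in MEF to 68.5 CPM at day 3, 170.7 CPM at day 6, 240.6 CPM at day 9 and 734.9 CPM in ESC. Its log2 fold change was 1.80 (SE 0.04) from MEF to day 3, 1.32 (SE 0.03) from day 3 to day 6 and 1.61 (SE 0.03) from day 9 to ESC. Of the 8 partner genes, 2 rose and 0 fell by day 3, and 3 were higher and 0 lower in ESC than in MEF.

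The FoxO genes, which link growth factor signalling to stress resistance and cell cycle arrest, gave few calls. Of the 4 tested, 1 rose (Foxo4) and 1 fell (Foxo6) from MEF to day 3, 0 were called from day 3 to day 6 or from day 6 to day 9, 1 rose from day 9 to ESC (Foxo6), and 0 of the 4 were called between MEF and ESC. X-linked Foxo4 was at 33.8 and 34.8 CPM in MEF, 78.6 and 77.7 CPM at day 3, 101.5 and 106.5 CPM at day 6, 73.3 and 71.7 CPM at day 9, and 46.5 and 45.2 CPM in ESC. No 2 groups overlapped, and day 6 was highest. Foxo4 rose 2.28-fold from MEF to day 3 (log2 fold change 1.19, SE 0.04, adjusted p = 8.2e-12), and day 6 exceeded MEF 3.03-fold (1.60, SE 0.04) and ESC 2.27-fold (1.18, SE 0.04, adjusted p = 3.7e-12). The median change of 508 X-linked genes from MEF to day 3 was 0.0 against 0.04 for other protein-coding genes, and 15.7% of them rose against 14.0% of the others. The part of the difference in Xist and Ddx3y between MEF and the induced libraries in the Foxo4 value was not tested.

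Foxo1 and Foxo3 differed by less than 2-fold between successive groups. Foxo1 was at 19.2 CPM in both MEF libraries, 30.8 CPM in both day 3 libraries, 37.8 and 36.3 CPM at day 6, 39.6 and 39.4 CPM at day 9, and 33.4 and 32.8 CPM in ESC. It was called in none of the 5 comparisons, since each step stayed under 2-fold, whereas day 9 against MEF reached 2.06-fold (1.04, SE 0.05, adjusted p = 1.1e-10). That call was lost with DESeq2 (0.90), with the stricter filter (0.98) and in the fit to only these groups (0.91). Foxo3, which guards quiescence in stem cells, kept between 66.7 and 101.0 CPM in all 10 libraries, and its day 3 and day 6 libraries overlapped (-0.05, SE 0.05, adjusted p = 0.41). Foxo6, a brain-enriched member, was at 1.15 and 1.55 CPM in MEF, 0.354 and 0.480 CPM at day 9, and 2.92 and 2.51 CPM in ESC, a 6.39-fold rise from day 9 (2.68, SE 0.33, adjusted p = 5.2e-06). Its fall from MEF to day 3 rests on 82 and 44 reads. That call was lost under library-size scaling (-0.92) and without the second MEF library (-0.87) or the first day 3 library (-0.93). ESC against MEF was 2.0-fold on rounding (1.0, SE 0.29, adjusted p = 0.0066), just short of the minimum.

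Known FoxO targets moved in both directions. Of 20 targets, 6 rose and 3 fell from MEF to day 3 (median log2 fold change 0.17), 0 rose and 3 fell from day 3 to day 6 (-0.45), and in ESC 2 were higher and 9 lower than in MEF (-0.90, against 0.1 over all genes). Txnip, an inhibitor of glucose uptake, rose from 182.1 to 565.6 CPM by day 3, while Klf2, a quiescence factor of endothelium and lymphocytes that also acts in naive pluripotency, fell from 168.1 to 14.9 CPM. Klf2 was at 11.4 CPM at day 9 and 121.9 CPM in ESC (3.42, SE 0.06). Fbxo32, a ubiquitin ligase of muscle wasting, was at 93.9 CPM in MEF, 217.6 CPM at day 3, 42.9 CPM at day 6 and 22.7 CPM in ESC. Of 24 genes of the Akt pathway upstream of FoxO, 1 rose and 3 fell by day 3. Sgk1, a kinase that phosphorylates FoxO proteins, fell from 260.4 to 28.4 CPM (-3.20, SE 0.05) and stood at 249.6 CPM in ESC, and Akt1 was at 404.9 CPM in MEF and 104.4 CPM in ESC (-1.95, SE 0.04).

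Mesenchymal forkhead genes fell more often than they rose in the first steps, and most were higher in ESC than at day 9, but Foxc1 and Foxd1 did not follow that course. Of the 9 genes (Foxc1, Foxc2, Foxd1, Foxd2, Foxf1, Foxf2, Foxl1, Foxq1 and Foxs1), 1 rose and 5 fell from MEF to day 3 and 0 rose and 5 fell from day 3 to day 6, with medians of -1.80 and -2.55 (-2.18 with genes at 0 set to the floor). Over all genes tested, 14.6% rose and 14.5% fell from MEF to day 3, with a median of 0.08. From day 3 to day 6, 9.26% rose and 10.2% fell, with a median of 0.03. From day 9 to ESC 7 rose and 2 (Foxc1 and Foxd1) fell, with a median of 4.36 (3.95 with genes at 0 set to the floor). Over all genes 18.6% rose and 14.3% fell in that comparison, with a median of 0.0. Against MEF, 1 of the 9 was higher in ESC and 6 were lower, with a median of -1.40. Over all genes these shares were 25.5% and 20.6%, with a median of 0.1. The 1 higher was Foxq1, an epithelial and hair follicle gene that the group includes, on 11 reads in MEF.

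Foxc2, a regulator of lymphatic vessels and paraxial mesoderm, was not detected at day 6. It was at 11.7 and 13.3 CPM in MEF, 1.80 and 1.77 CPM at day 3, 0 in both day 6 libraries, 0.0321 and 0.0253 CPM (1 read each) at day 9, and 6.81 and 7.29 CPM in ESC. The fall to day 3 was 6.97-fold (log2 fold change -2.80, SE 0.16, adjusted p = 3.9e-09), and day 6 was at least 40.0-fold lower than day 3 and at least 279.1-fold lower than MEF. ESC held 504 reads against 2 at day 9, a ratio of 249.6 with a 95% counting interval from 68.7 to 2066. ESC and MEF differed by 1.77-fold (-0.83, SE 0.14, adjusted p = 0.00014), below the fold minimum.

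Foxs1, expressed in perivascular cells and sensory neurons, was also near 0 in the sorted cells. Its libraries were at 18.0 and 17.3 CPM in MEF, 0.915 and 1.03 CPM at day 3, 0 and 0.0302 CPM at day 6, 0.0321 and 0.126 CPM at day 9, and 4.98 and 4.17 CPM in ESC. Every induced library lay below every MEF and ESC library. The fall from MEF to day 3 was 18.1-fold (-4.18, SE 0.21, adjusted p = 2.4e-10), day 6 held 1 read against 69 at day 3 (ratio 65.2, counting interval 11.3 to 2613), and ESC were 3.87-fold below MEF (-1.95, SE 0.17, adjusted p = 9.6e-08).

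Foxc1, the close paralogue of Foxc2, followed another course. It was at 16.3 and 13.7 CPM in MEF, 29.4 and 30.1 CPM at day 3, 16.9 and 17.7 CPM at day 6, 23.5 and 26.7 CPM at day 9, and 3.39 and 3.55 CPM in ESC. Levels thus stayed between 16.9 and 30.1 CPM on the induced days, and both ESC libraries were below all others. From MEF to day 3 the change was 1.99-fold (0.99, SE 0.08, adjusted p = 8.6e-08), just short of the minimum and past it under library-size scaling. ESC were 7.24-fold below day 9 (-2.86, SE 0.10, adjusted p = 7.5e-12) and 4.30-fold below MEF (-2.11, SE 0.11, adjusted p = 3.0e-10).

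Of the 9 genes, 6 lie in a pair of paralogous clusters. Foxf1, Foxc2 and Foxl1 lie within 46.3 kb on chromosome 8 (121084386 to 121130644, GRCm38, plus strand), and Foxq1, Foxf2 and Foxc1 within 256.3 kb on chromosome 13 (31556134 to 31812476, plus strand). In the chromosome 8 cluster all 3 genes fell from MEF to day 3. Foxf1, a hedgehog target of gut and lung mesenchyme, went from 3.18 and 3.26 CPM in MEF to 1.75 and 1.42 CPM at day 3, 0.0321 and 0.0758 CPM at day 9, and 1.47 and 0.988 CPM in ESC. Foxl1 of the gut mesenchyme was at 0.665 and 0.732 CPM in MEF, had 0 reads at day 6 and day 9, and was at 1.00 and 0.641 CPM in ESC, so that MEF and ESC overlapped and ESC were at least 19.4-fold higher than day 9. On chromosome 13 Foxf2 fell as Foxf1 did (0.850 and 1.59 CPM in MEF, 0.0643 and 0.0758 CPM at day 9, 0.471 and 0.454 CPM in ESC), whereas Foxc1 beside it did not. Foxq1, an epithelial and hair follicle gene, was at 0.185 and 0.183 CPM in MEF and 0.501 and 0.908 CPM in ESC, a call lost without the second ESC library (adjusted p = 0.17), without either MEF library (0.06 and 0.067) and with DESeq2 (0.12).

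**Figure D3:**
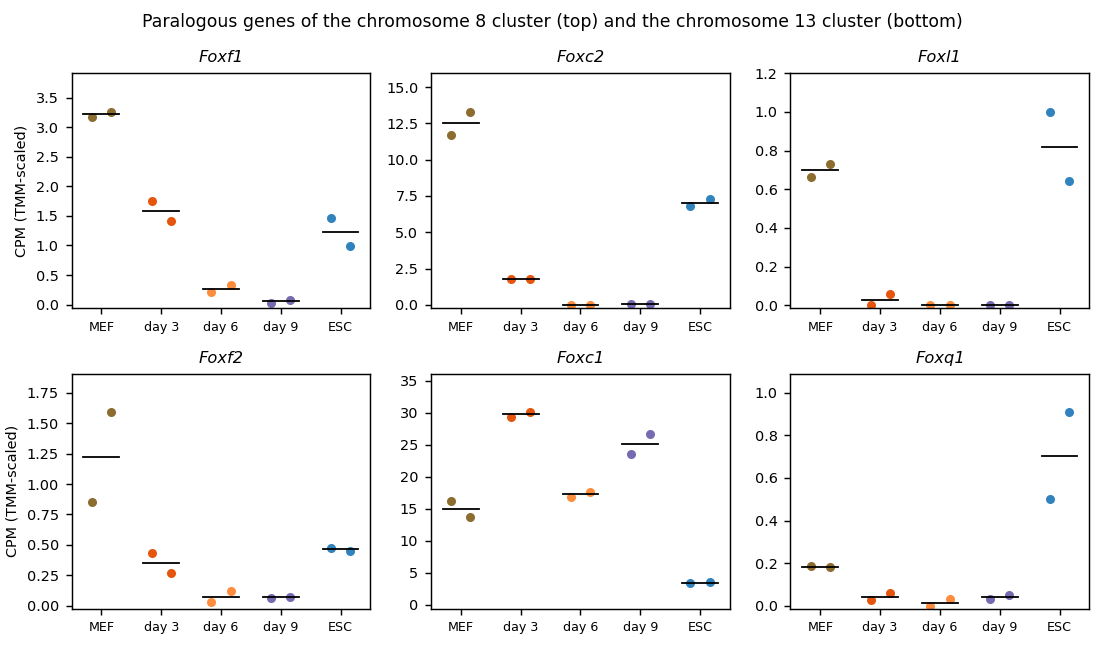
TMM-scaled CPM (y axes, own scale per gene, starting at 0) of the genes of the chromosome 8 cluster (top) and the chromosome 13 cluster (bottom) in MEF, induced days and ESC; dots are libraries and lines are group means. Foxf1, Foxc2, Foxl1 and Foxf2 are near 0 at day 6 and day 9, whereas Foxc1 stays between 16.9 and 30.1 CPM on the induced days.

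Several of these calls rest on few reads. Foxf2 in ESC against MEF lost its call in 5 of the alternatives on counts, among them DESeq2 (adjusted p = 0.07) and the fit without the second MEF library (0.22), and from MEF to day 3 without the second MEF library (0.11) or the second day 3 library (0.053). Its fall from day 3 to day 6 rests on 25 and 5 reads and was lost without the first day 3 library (0.11) or the first day 6 library (0.13). The fall of Foxf1 from day 6 to day 9 rests on 18 and 4 reads and was lost without the second day 6 library (0.11) or the first day 9 library (0.088). Foxf1 from MEF to day 3 was 2.03-fold (-1.02, SE 0.29) and missed the minimum under library-size scaling (-0.82). That call was also lost without the second MEF library (adjusted p = 0.038, just short of the fold minimum) and without the second day 3 library (-0.87, adjusted p = 0.056). The gene Gm20388 spans all 3 genes of the chromosome 8 cluster on the same strand and was at 315.1 and 308.8 CPM in MEF, 754.8 and 745.7 CPM at day 3, and 123.0 and 130.3 CPM in ESC. How reads were divided between it and the forkhead genes was not tested. Foxd2 was at 1.15 and 0.976 CPM in MEF, 0 in all day 6 and day 9 libraries and 0.206 and 0.320 CPM in ESC. Its noncoding neighbour Foxd2os went from 1.40 and 1.46 CPM in MEF to 0.0588 and 0.0605 CPM at day 6.

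Fibroblast markers were lower in ESC than in MEF, and most were higher in ESC than at day 9, as were 7 of the 9 mesenchymal forkhead genes. The 15 fibroblast markers stood in ESC at 1.11% (Lum) to 42.9% (Fn1) of their MEF level, with a median of 9.3% and 13.6% for their sum, and 14 of them rose and 0 fell from day 9 to ESC. Only Lum was under 1 CPM in ESC. On the same measure Foxd1 stood at 21.0%, Foxc1 at 23.1%, Foxd2 at 24.8%, Foxs1 at 25.9%, Foxf2 at 38.0%, Foxf1 at 38.2%, Foxc2 at 56.5%, Foxl1 at 117.6% and Foxq1 at 383.2% of MEF. Foxc2, Foxl1 and Foxq1 thus lay above the range of the markers and the other 6 within it. The Foxq1 value rests on 11 reads in MEF and 51 in ESC. Macrophage and blood markers also rose: all 8 tested were higher in ESC than at day 9, and the list summed to 7.97 and 8.76 CPM at day 9 and 85.7 and 88.6 CPM in ESC. The part of RNA from feeder or other cells in the ESC values of these forkhead genes was not tested.

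Other genes of mesenchyme and of the hedgehog pathway, which acts upstream of FoxF and FoxC genes, gave mixed calls, with more falls than rises up to day 6. Of 19 tested, 2 rose and 8 fell from MEF to day 3 (median -0.82), 2 rose and 12 fell from day 3 to day 6 (-1.86), and 11 were higher and 3 (Meox2, Smo and Tbx18) lower in ESC than at day 9 (2.12). Pdgfra, a receptor of mesenchymal cells, fell from 274.4 to 1.57 CPM by day 3 (-7.44, SE 0.09) and stood at 5.98 CPM in ESC. Pdgfrb was at 618.4 CPM in MEF, 79.8 CPM at day 3, 3.89 CPM at day 6 and 81.5 CPM in ESC. Gli1, the readout of active hedgehog signalling, was at 2.90 CPM in MEF, 1.29 CPM at day 9 and 42.3 CPM in ESC, where it exceeded MEF (3.87, SE 0.10) while 15 of the 19 genes were below MEF.

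The FoxP genes, repressors that pair with one another, split 3 ways. Foxp2, a gene of lung and of speech circuits in the brain, was at 9.16 and 9.18 CPM in MEF, 0.727 and 0.828 CPM at day 3, 0.206 and 0.121 CPM at day 6, 0.0643 and 0.152 CPM at day 9, and 0.383 and 0.828 CPM in ESC. MEF stood apart from all other libraries, with an 11.8-fold fall to day 3 (-3.56, SE 0.30, adjusted p = 1.1e-07), and ESC were 14.9-fold below MEF (-3.90, SE 0.31, adjusted p = 3.4e-08). In deposited TPM the replicates of Foxp2 lay far apart (3.16 and 1.28 TPM in MEF, 0.089 and 1.12 TPM at day 3), and limma on log2(TPM + 1) did not call either comparison (adjusted p = 0.069 and 0.071). Foxp4, which acts with Foxp1 and Foxp2 in lung and gut, was at 56.5 and 57.9 CPM in MEF, 47.4 and 44.4 CPM at day 3, 96.6 and 99.4 CPM at day 6, 120.1 and 125.1 CPM at day 9, and 64.2 and 67.8 CPM in ESC. The sorted libraries were the highest 4, and the rise from day 3 to day 6 was 2.13-fold (1.09, SE 0.05, adjusted p = 6.3e-11). Between ESC and day 9 the difference was 1.86-fold (-0.89, SE 0.04, adjusted p = 2.0e-10).

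Foxp1 was called in none of the comparisons and ranged from 61.8 to 117.5 CPM. It was also the only 1 of 11 multi-transcript members at 20 CPM or more whose leading transcript differed between groups in both libraries. The transcript ENSMUST00000113322.6 held 36.1% and 44.9% of the Foxp1 reads in MEF and 12.1% and 24.4% at day 6, whereas ENSMUST00000113326.6 held 27.7% and 18.8% in MEF and 57.4% and 45.4% at day 6. At day 3 the replicates disagreed, with 52.3% and 17.8% for the latter, and the 32 transcripts were told apart by short single reads, so these shares are uncertain.

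The epiblast genes Foxh1 and Foxd3 reached their highest level in ESC by different routes. Foxh1, the partner that takes activated Smad2 and Smad3 to DNA in Nodal signalling, was at 0.0369 and 0.0610 CPM in MEF, 0.0538 and 0.148 CPM at day 3, 3.65 and 4.60 CPM at day 6, 12.9 and 12.8 CPM at day 9, and 24.3 and 24.2 CPM in ESC. Each group from day 6 on lay above the one before. Foxh1 rose 40.3-fold from day 3 to day 6 (log2 fold change 5.33, SE 0.28, adjusted p = 8.4e-10) and 3.12-fold to day 9 (1.64, SE 0.12, adjusted p = 1.2e-07). The step from day 9 to ESC was 1.89-fold (0.92, SE 0.10, adjusted p = 2.0e-06). ESC held 1732 reads against 3 in MEF, a ratio of 484.2 with a counting interval from 165.4 to 2350.

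Foxd3, a factor required to maintain the epiblast and embryonic stem cells, stayed low until ESC. It was at 0.554 and 0.335 CPM in MEF, 0.162 and 0.266 CPM at day 3, 0.0294 and 0 CPM at day 6, 0.546 and 0.556 CPM at day 9, and 17.6 and 18.3 CPM in ESC. Day 9 and MEF overlapped, and ESC exceeded day 9 32.4-fold (5.02, SE 0.22, adjusted p = 7.1e-11). The fall from MEF to day 3 rests on 26 and 15 reads (-1.03, SE 0.41, adjusted p = 0.041) and was lost in 6 of 10 alternatives on counts, including library-size scaling (0.097) and the fit without the first MEF library (0.33). From day 6 to day 9 reads went from 1 to 39, a ratio of 37.0 (counting interval 6.26 to 1498).

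Most Nodal pathway genes were higher in ESC than at day 9, after mixed calls at the earlier steps. Of 16 genes of the pathway around Foxh1, 4 rose and 5 fell from MEF to day 3, 5 rose and 2 fell to day 6, 1 rose and 1 fell to day 9, and 10 were higher and 0 lower in ESC than at day 9 (median 1.96 against 0.0 over all genes). Tdgf1, the Nodal co-receptor, was at 0.209 CPM at day 3, 27.7 CPM at day 6, 99.2 CPM at day 9 and 837.2 CPM in ESC. Lefty1 and Lefty2, inhibitors that Nodal signalling induces, were at 2.60 and 3.01 CPM at day 9 and at 96.5 and 46.6 CPM in ESC (5.24, SE 0.11, and 3.94, SE 0.10). Nodal itself had 0 reads in MEF and stood at 52.6 CPM in ESC.

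Foxn4, Foxr1, Foxr2, Foxa1 and Foxa3 joined Foxd3 in being highest in ESC. Foxn4, a gene of retinal and spinal cord progenitors, had 0 reads in MEF and at day 3, was at 0.353 and 0.121 CPM at day 6 and 0.418 and 0.354 CPM at day 9, and reached 8.07 and 7.74 CPM in ESC, 20.5-fold above day 9 (4.35, SE 0.34, adjusted p = 1.9e-07). Against MEF its ESC level was at least 157.8-fold higher. X-linked Foxr2 had at most 1 read per library outside ESC and was at 2.24 and 1.98 CPM there, at least 42.1-fold higher than MEF. Foxr1 was at 1.68 and 1.42 CPM in ESC and at no more than 0.546 CPM elsewhere (4.07-fold above day 9; 2.03, SE 0.45, adjusted p = 0.0012).

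The upstream stretches of 3 of these ESC-high genes are shown as those of Foxd1 and Foxi3 were, to compare genes that rose in the same step (capitals as before, GRCm38.p6, RefSeq). Foxd3 spans chr4:99656049-99656298 on the plus strand, Foxn4 spans chr5:114273808-114274011 on the minus strand, and Foxr2 spans chrX:153118538-153118785 on the plus strand.
Foxd3: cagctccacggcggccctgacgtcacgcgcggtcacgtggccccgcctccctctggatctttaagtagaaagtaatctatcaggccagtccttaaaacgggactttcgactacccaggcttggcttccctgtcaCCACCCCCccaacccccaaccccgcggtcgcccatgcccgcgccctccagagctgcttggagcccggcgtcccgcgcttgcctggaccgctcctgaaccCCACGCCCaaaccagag
Foxn4: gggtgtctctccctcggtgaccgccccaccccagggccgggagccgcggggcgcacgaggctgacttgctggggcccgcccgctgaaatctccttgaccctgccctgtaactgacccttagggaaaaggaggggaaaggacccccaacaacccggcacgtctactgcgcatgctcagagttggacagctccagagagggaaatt
Foxr2: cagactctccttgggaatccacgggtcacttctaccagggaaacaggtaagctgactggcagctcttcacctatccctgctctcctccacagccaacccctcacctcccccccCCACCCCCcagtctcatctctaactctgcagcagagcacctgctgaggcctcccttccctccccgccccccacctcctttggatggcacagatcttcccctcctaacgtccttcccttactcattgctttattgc
Foxd3 holds 2 KLF-type matches and 21 CG dinucleotides, Foxr2 holds 1 match and 3 CG dinucleotides, and Foxn4 holds 0 matches and 12 CG dinucleotides. The 3 windows thus share neither the match nor the CG content, at 65.6%, 58.9% and 64.7% GC for Foxd3, Foxr2 and Foxn4.

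The FoxA genes were near the limit of detection. Foxa1 was at 0.884 and 1.04 CPM in ESC and at no more than 0.111 CPM elsewhere, with 69 reads in ESC against 2 at day 9 (ratio 34.2, counting interval 9.11 to 287.8). Foxa3 was at 0.530 and 0.694 CPM in ESC with 44 reads against 1 at day 9 (ratio 43.6, interval 7.42 to 1760), and Foxa2 had 10 reads over all libraries. Endoderm genes tied to FoxA factors were mostly low as well: 12 of 21 were under 1 CPM in ESC, among them Sox17, Hnf4a, Afp, Ttr and Alb. Of the 14 that passed the filter, 8 were higher and 3 lower in ESC than in MEF. From day 9 to ESC 9 of the 14 rose and 3 fell, with a median of 2.27 against 0.0 over all genes. The 3 that fell were Krt8 (148.9 CPM at day 9, 11.2 CPM in ESC), Krt18 (34.3 and 10.6 CPM) and Cxcr4 (19.2 and 0.596 CPM).

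**Figure D4:**
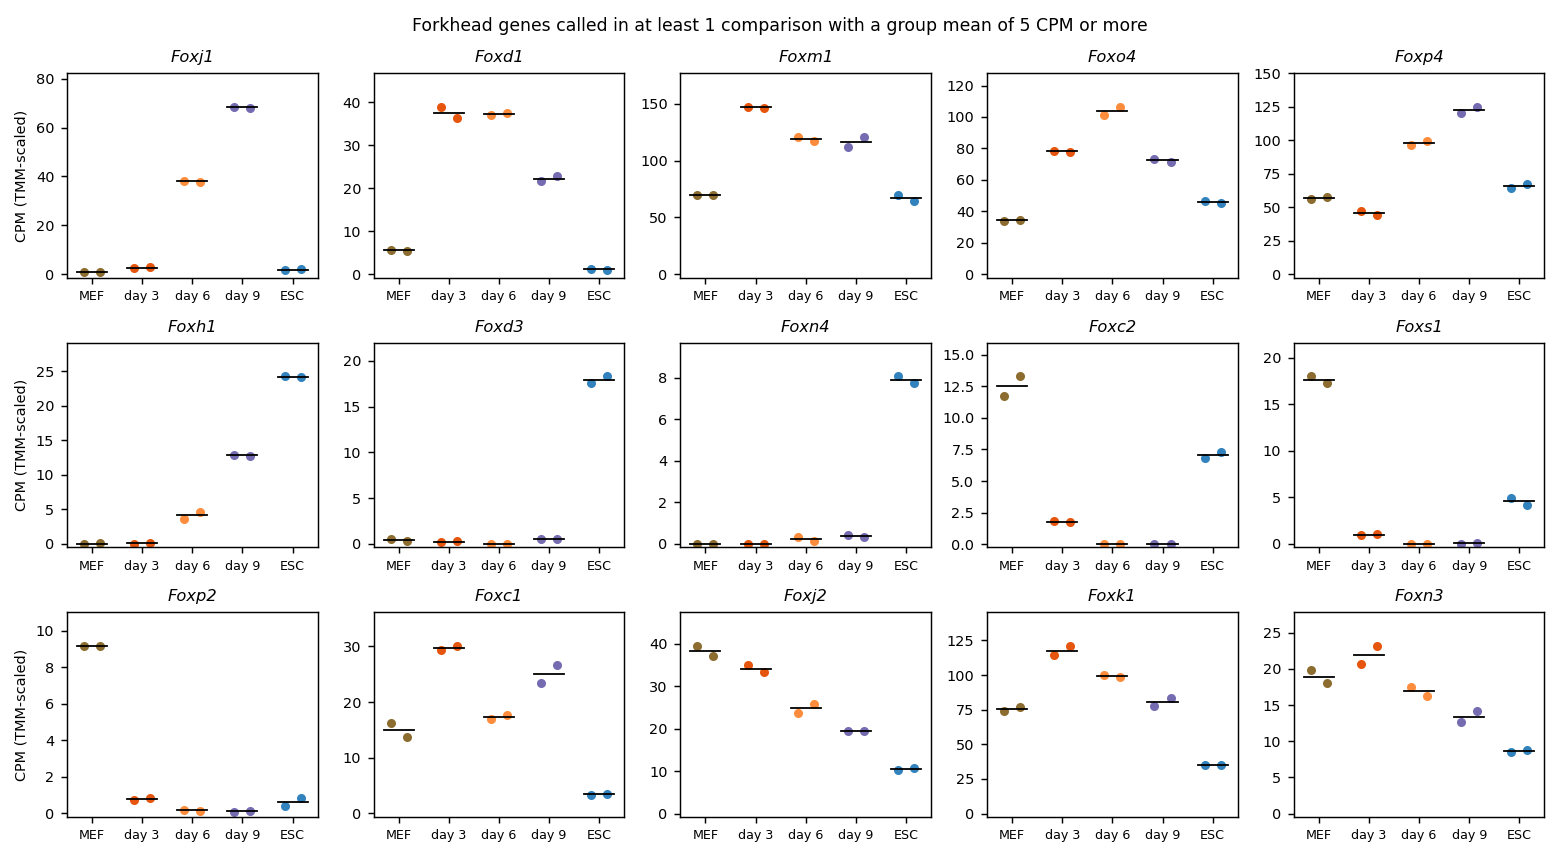
TMM-scaled CPM (y axes, own scale per gene, from 0) of the 15 forkhead genes called in at least 1 comparison with a group mean of 5 CPM or more; dots are libraries, lines are group means. Foxj1, Foxd1, Foxm1 and Foxo4 peak on induced days, Foxh1, Foxd3 and Foxn4 are highest in ESC, and Foxc2, Foxs1 and Foxp2 are highest in MEF.

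Of the broadly expressed members outside the FoxO and FoxP groups, Foxj2, Foxk1 and Foxn3 were lower in ESC than in MEF. Foxj2 was at 39.5 and 37.0 CPM in MEF, 35.0 and 33.3 CPM at day 3, 23.7 and 25.9 CPM at day 6, 19.5 CPM in both day 9 libraries, and 10.3 and 10.8 CPM in ESC. Each group lay below the one before without overlap, no single step reached 2-fold, and ESC were 3.61-fold below MEF (-1.85, SE 0.07, adjusted p = 3.3e-12). Foxk1, a repressor of autophagy genes that also promotes glycolysis, was at 74.1 and 77.0 CPM in MEF, 114.2 and 121.1 CPM at day 3, 99.8 and 98.3 CPM at day 6, 78.0 and 83.7 CPM at day 9, and 35.2 and 35.1 CPM in ESC. ESC were 2.30-fold below day 9 (-1.20, SE 0.05, adjusted p = 2.3e-11) and 2.15-fold below MEF (-1.10, SE 0.05, adjusted p = 3.6e-11).

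Foxn3, a repressor linked to the DNA damage checkpoint, ended lowest in ESC as well. It was at 19.8 and 18.0 CPM in MEF, 20.7 and 23.2 CPM at day 3, 17.5 and 16.3 CPM at day 6, 12.6 and 14.2 CPM at day 9, and 8.51 and 8.76 CPM in ESC. ESC were below every other library and 2.18-fold below MEF (-1.12, SE 0.09, adjusted p = 4.2e-08). Under library-size scaling, which moved the median of all genes by more than 0.1 in this comparison, Foxk1 (-0.76) and Foxn3 (-0.78) missed the fold minimum against MEF. In deposited TPM, limma on log2(TPM + 1) called neither Foxk1 (-0.79) nor Foxn3 (-0.73, adjusted p = 0.14) in this comparison.

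Foxk2, the paralogue of Foxk1, differed in the other direction at the first step. It was at 115.7 and 117.0 CPM in MEF, 63.9 and 64.7 CPM at day 3, 86.8 and 89.1 CPM at day 6, 91.2 and 90.2 CPM at day 9, and 69.1 and 68.5 CPM in ESC. From MEF to day 3 Foxk2 was 1.81-fold lower (-0.86, SE 0.04, adjusted p = 3.1e-11), while Foxk1 was 1.56-fold higher (0.64, SE 0.04, adjusted p = 1.1e-08). Neither reached the fold minimum on counts. In deposited TPM the Foxk2 libraries were at 29.5 and 26.5 TPM in MEF and 10.1 and 11.6 TPM at day 3, further apart than on counts. Foxj3 (40.6 to 65.2 CPM) and Foxn2 (38.2 to 49.7 CPM) were called in none of the 5 comparisons and kept within these ranges in all 10 libraries.

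Forkhead genes of epithelium and nervous system that passed the filter were low apart from Foxj1. Foxn1 of thymic epithelium stayed at or below 0.354 CPM and was called in none of the comparisons.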

How the data were processed

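Polyadenylated RNA of 10 libraries was measured by stranded single-end RNA-seq, per the labels' protocols. The deposited tables hold, per transcript, an estimated count and a TPM value, per the file headers. Salmon 0.8.2 and build mm10 are named in the submitters' processing notes; index and settings are not given in the sources used here. Estimated counts deposited by the authors were summed over transcripts per gene (109617 transcripts, 45706 genes) and rounded; TPM values made by the authors were summed likewise.

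Genes passing edgeR's filterByExpr (minimum count 10, minimum total 15; 20165 genes) were fitted over all 10 libraries with edgeR 4.0.16 (R 4.3.3), TMM scaling and the quasi-likelihood test, with group as the only term. A call needs a Benjamini-Hochberg adjusted p under 0.05 over all genes tested and a 2-fold change. The common biological coefficient of variation was 3.75%. Exact permutation of 2 libraries against 2 cannot go below p = 0.333, so no such test was used. Counting intervals are exact and, like the floor of 3 reads, cover counting error only. Alternatives were DESeq2 1.42.0, limma 3.58.1 on log2(TPM + 1) and log2(TPM + 0.1), other filters (none, or 10 CPM in 2 libraries), library-size scaling, fits of only the groups compared, a replicate block, no fold minimum, and leaving out each library. Scripts were tested on simulated data.

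Members and gene lists (FoxO targets, Akt pathway, Foxm1 targets and partners, cilia, hedgehog and mesenchyme, Nodal, endoderm, cell type markers) were chosen with earlier results of these data known. Genes called at least once with a group mean of 5 CPM are described in full, the others more briefly; list genes are named where called at 20 CPM or more with the largest changes. A few values of low members are given beyond that rule and were chosen after being seen. The values of 1 member, which is in the counts, are not reported here. Replicates of a group differed by more than sampling noise (chi-square per degree of freedom 2.91 to 5.42).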

Additional observations from a re-analysis of the deposited data

How the results depend on the processing

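Under the alternatives, 38 called differences of the fully described genes gave 485 values. Of these, 446 kept their direction and call, 39 kept the direction and lost the call, and 0 reversed. The fits without a fold minimum are among the 485 and could not lose a call. Of the losses, 17 were with limma on log2(TPM + 1) and 10 with log2(TPM + 0.1). These scales compress low levels, but Foxn3, lost in ESC against MEF, was at 23.0 TPM in MEF and 13.4 TPM in ESC. Foxp2 from MEF to day 3 was lost on the p-value alone with limma on log2(TPM + 0.1) (-2.14, adjusted p = 0.1). Another 9 values could not be had because the gene was not tested. The stricter filter tests fewer genes (11712) and gave, higher and lower, 3 and 3 calls at day 3 against MEF, 3 and 3 at day 6 against day 3, 0 lower at day 9 against day 6, 3 higher in ESC against day 9, and 3 and 6 in ESC against MEF, with 3 genes above and 3 below both ends. Library-size scaling gave 5 lower from MEF to day 3, and fitting only the groups compared gave 0 lower from day 6 to day 9. DESeq2 gave 3 genes above both ends. Limma on log2(TPM + 1) gave 3 and 3, 3 and 0, 1 and 0, 4 and 3, and 3 and 2 in the order of the comparisons above, with 3 above and 2 below both ends. Limma on log2(TPM + 0.1) gave 5 lower at day 3 against MEF, 4 at day 6 against day 3, 0 at day 9 against day 6 and 5 in ESC against MEF, with 3 above and 5 below both ends. Without a fold minimum 12 genes were higher at day 3 against MEF, 10 higher and 13 lower at day 6 against day 3, 6 higher and 9 lower at day 9 against day 6, 15 lower in ESC against day 9, and 14 above both ends. The cause of the changes under library-size scaling, DESeq2 and the fits of only the groups compared was not tested.

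Leaving out 1 library at a time gave 5 to 6 higher and 5 to 7 lower at day 3 against MEF, 5 to 5 and 6 to 8 at day 6 against day 3, 3 to 3 and 0 to 1 at day 9 against day 6, 16 to 16 and 4 to 5 in ESC against day 9, 10 to 12 and 9 to 10 in ESC against MEF, 4 to 6 above and 9 to 10 below both ends. The labels do not say whether equal replicate numbers share a preparation. The correlation of deviations between libraries of 1 number, over all genes tested, averaged -0.00827 and ran from -0.0505 to 0.0362. A value over all genes cannot show a shared factor that acts on few of them. With the replicate block the counts were 5 and 7, 5 and 8, 3 and 1, 16 and 5, and 12 and 10, with 5 above and 10 below both ends. Depth limits the genes under 5 CPM.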

Other observations

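The remaining marker lists give the background of other cell types. From day 9 to ESC 7 of 10 primitive endoderm markers rose and 1 fell (Lama1, from 193.8 to 79.6 CPM), with summed levels of 829.7 and 857.9 CPM at day 9 and 739.1 and 749.0 CPM in ESC. Of 7 trophoblast markers tested, 3 rose and 1 fell, with sums of 62.6 and 64.8 CPM at day 9 and 47.3 and 50.4 CPM in ESC. Of 8 endothelial markers 4 rose and 4 fell, and Tek, an angiopoietin receptor, was at 2.33 CPM in MEF and 121.0 CPM at day 3. Of 7 neural markers 4 rose and 1 fell, with sums of 92.7 and 95.4 CPM at day 9 and 223.0 and 228.1 CPM in ESC. The noncoding neighbours Fendrr, Foxo6os and Foxl2os were under the low-count filter.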
